A study of Mus musculus with 15 samples.

Results

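Cells that run short of oxygen switch on a shared set of genes through the hypoxia-inducible factors (HIFs). H3K27ac, the acetylation of histone H3 at lysine 27 that marks active promoters and enhancers, was examined at 10 genes of this response in fusion-positive rhabdomyosarcoma (FP-RMS), a soft tissue tumor with features of skeletal muscle. The genes were chosen by name out of 21000 protein-coding genes. They were the HIF alpha subunits Hif1a and Epas1, the oxygen sensor Egln3, and the target genes Slc2a1, Pgk1, Ldha, Pdk1, Bnip3, Car9 and Vegfa. A peak belonged to a gene when it overlapped the RefSeq span of the gene or 50 kb on either side, and 115 of the 122375 peaks in the list did so. Each peak was placed in 1 class, which was promoter when it reached within 2 kb of a start site of the gene, otherwise gene body, otherwise flank.

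The tumor came from the MCP mouse model, which carries Myf6-Cre and R26-tdTom together with the alleles Cdkn2a(Flox/Flox) and Pax(3P3F/P3F). In these mice the Cre recombinase made from the Myf6 locus in myogenic cells turns on the fusion oncoprotein PAX3-FOXO1 (P3F), deletes the tumor suppressor Cdkn2a and switches on the red reporter tdTomato. The mark was profiled by CUT&RUN, in which a nuclease tethered to an antibody cuts out the DNA beside it, in live cells sorted by flow cytometry from digested tumors, and the labels give no age. Of 15 libraries in the series, the peak list of 1, MCP H3K27ac replicate 5, was analyzed, so no value below has a replicate and no test between groups was made, and the other libraries, which include those of the TCP model driven by Tek-Cre, were not used here.

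Under normal oxygen, prolyl hydroxylases such as EGLN3 hydroxylate the HIF alpha subunits, and the von Hippel-Lindau protein then directs their destruction. When oxygen falls, the alpha subunits last, pair with ARNT and bind a short DNA motif, the hypoxia response element, beside genes for glucose uptake, glycolysis, mitochondrial turnover, pH control and vessel growth. Solid tumors often outgrow their blood supply, and many also use glycolysis when oxygen is present. The alpha subunits are controlled largely through the stability of the protein, so acetylation at the genes that encode them is not a measure of HIF activity.

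The promoter sequences that hold a hypoxia response element core are shown first because the results below turn on where these cores lay beside the mark. A core is ACGTG or GCGTG on either strand, which reads CACGT or CACGC on the other strand. The palindrome CACGTG, an E-box bound by other factors too, contains a core on both strands and was counted as 1 stretch. Sequences are from RefSeq on the build GRCm38.p6 (mm10), on the strand of the gene from 5′ to 3′, with cores in capitals and up to 20 bases on either side. RefSeq promoter sequences matched 9 of the 10 genes, with Epas1 the exception. For Hif1a only the second start had a sequence, so its first start was not searched. The first set comes from the genes that carried a promoter peak.
Hif1a, 155 to 46 bases before the start, chr12:73907712-73907821 (+): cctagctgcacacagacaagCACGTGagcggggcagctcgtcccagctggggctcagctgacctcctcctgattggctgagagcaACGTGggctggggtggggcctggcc
Slc2a1, 81 to 12 bases before the start, chr4:119108664-119108733 (+): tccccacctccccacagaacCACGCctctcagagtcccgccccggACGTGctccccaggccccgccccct
Pgk1, 170 to 107 bases before the start, chrX:106186930-106186993 (+): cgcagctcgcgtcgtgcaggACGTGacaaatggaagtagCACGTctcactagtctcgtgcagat
Ldha, first start, 165 to 10 bases before it, chr7:46845639-46845794 (+): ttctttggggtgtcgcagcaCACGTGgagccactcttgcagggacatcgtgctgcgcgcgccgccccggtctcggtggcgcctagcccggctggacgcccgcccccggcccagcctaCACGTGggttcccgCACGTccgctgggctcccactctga
Ldha, second start, 79 to 35 bases before it, chr7:46847003-46847047 (+): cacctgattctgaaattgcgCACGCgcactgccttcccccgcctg
Bnip3, 137 to 11 bases before the start, chr7:138909517-138909643 (-): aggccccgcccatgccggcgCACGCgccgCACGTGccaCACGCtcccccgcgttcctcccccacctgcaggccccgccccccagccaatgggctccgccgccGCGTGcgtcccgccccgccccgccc
The second set comes from genes with a core before their outer start but no promoter peak.
Egln3, 249 to 205 bases before the start, chr12:54204079-54204123 (-): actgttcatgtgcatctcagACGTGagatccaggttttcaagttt
Pdk1, 98 to 54 bases before the start, chr2:71873126-71873170 (+): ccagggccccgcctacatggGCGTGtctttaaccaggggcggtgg
Car9, 38 to 1 bases before the start, chr4:43506988-43507025 (+): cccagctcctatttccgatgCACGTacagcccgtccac

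H3K27ac peaks lay at the promoters of Hif1a, Slc2a1, Pgk1, Ldha and Bnip3 and not at those of Epas1, Egln3, Pdk1, Car9 and Vegfa. Promoter peaks were thus present at 5 of the 10 genes, beside 45.6% of all protein-coding genes, so the share was near the background. Gene body peaks were present at 5 of the 10, namely Hif1a, Epas1, Slc2a1, Pgk1 and Bnip3, against 33.2% of all genes. Flank peaks were present at 9 of the 10 against 72.2% of all genes. Vegfa alone had no peak in its span or within 50 kb, a state shared by 22.1% of all genes. By class, the 115 peaks comprised 17 at promoters, 23 in gene bodies and 75 in flanks, and 41 of them (35.7%) lay at Slc2a1.

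**Figure D1:**
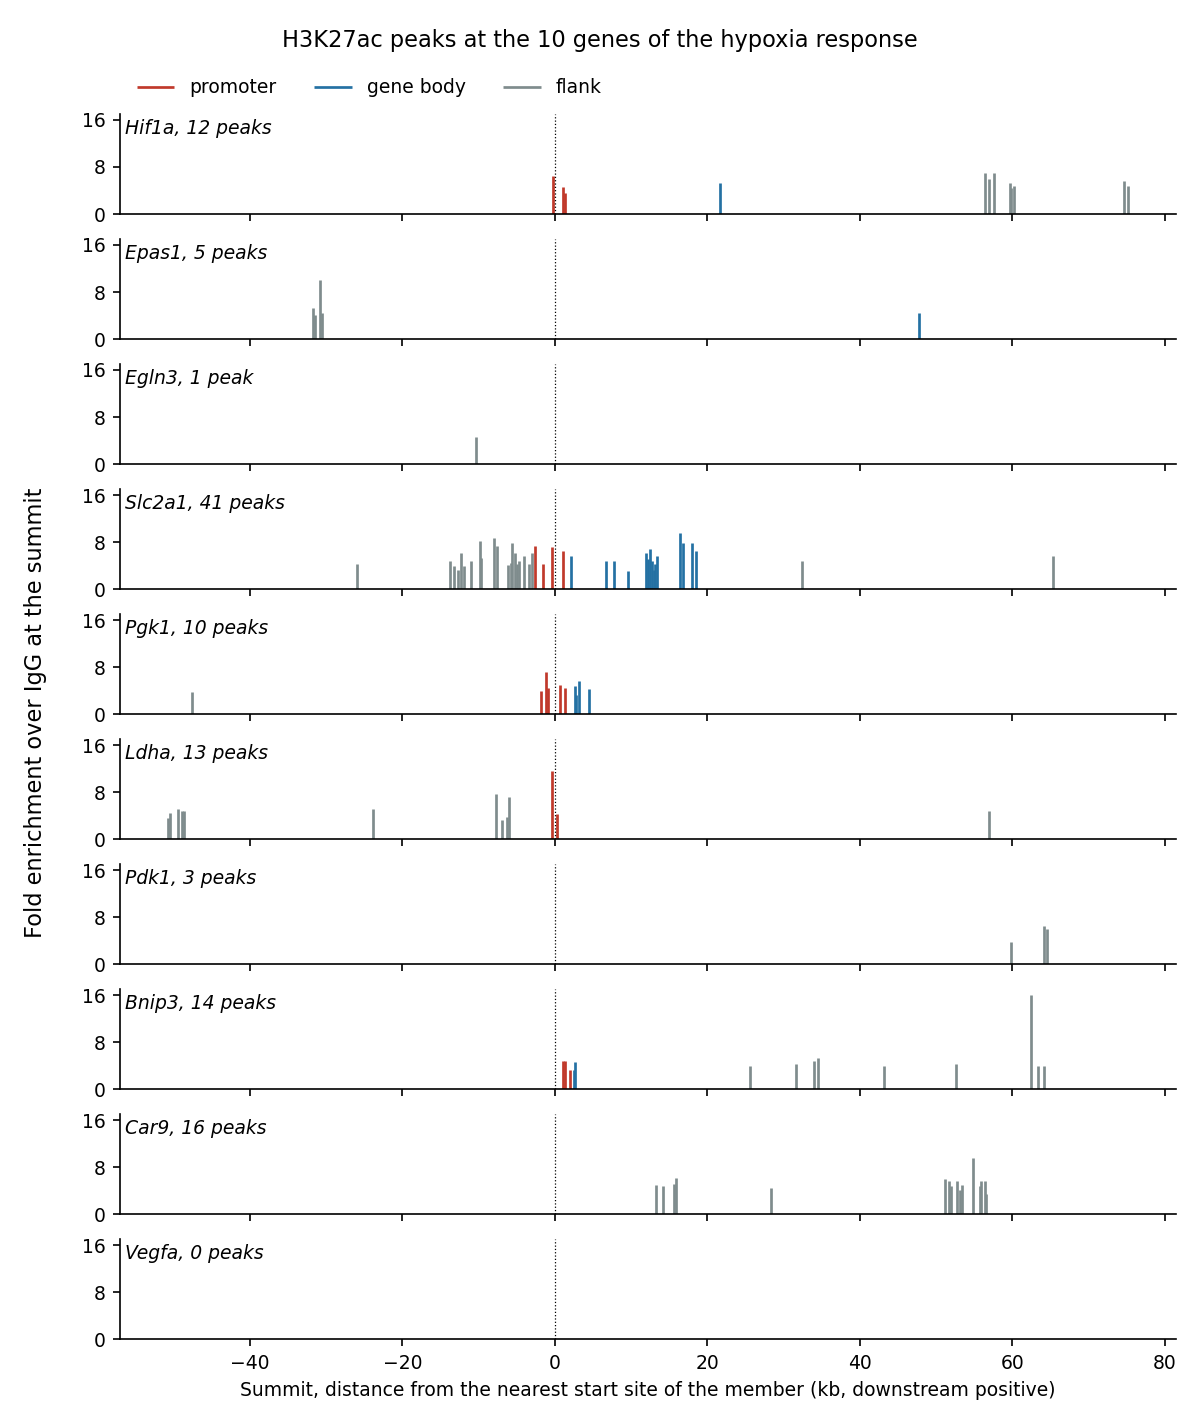
Each vertical line is 1 H3K27ac peak, placed by the distance of its summit from the nearest start site of the gene (kb, horizontal axis) and as tall as its fold enrichment over IgG (vertical axis), in 1 library. Slc2a1 holds 41 peaks on both sides of its start, the 16 peaks of Car9 all lie more than 13 kb from its start, and Vegfa has none.

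The genes differed widely in peak density, given as peaks per Mb over the span and its flanks. Slc2a1 reached 319 peaks per Mb, which was 7.49 times the density of chromosome 4 and higher than that of 97.3% of all genes. Car9 followed with 150 and Bnip3 and Ldha with 118 and 115. Pgk1 had 85.8 and Hif1a 82.1 peaks per Mb. Epas1, Pdk1 and Egln3 had 27.8, 23.0 and 8.01, which were below the densities of their chromosomes, and Vegfa had 0. Each gene had a Poisson 95% interval, which covers counting error only, that overlapped that of its neighbour in this order. The interval of Slc2a1 (229 to 433) overlapped that of Car9 (85.7 to 244) and of no other of the 10 genes, and the count of 0 at Vegfa allows up to 32.0 peaks per Mb. The median of the 10 genes was 83.9 peaks per Mb, beside a median of 56.2 and quartiles of 9.01 and 125 over all genes. Pooled, the 10 regions held 89.8 peaks per Mb, and 64.2 without Slc2a1.

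By their medians, single peaks at the hypoxia genes were somewhat smaller than those of the whole list. Their median width was 133 bp against 163 bp for the whole list, and their median fold enrichment over IgG was 4.79 against 5.22. The caller's values imply a median of 12 fragments over the summit, with a range from 7 to 36, against a median of 13 and quartiles of 10 and 17 for the list. At 66 of the 115 the local IgG background took the lowest value in the list, so for most of them the fold follows the number of fragments alone. Summits lay in introns for 69 peaks, between genes for 42, in coding exons for 2 and in 5′ untranslated exons for 2.

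Hif1a, which encodes the alpha subunit found in most tissues, lies at chr12:73901324-73947554 on the plus strand (gene ID 15251) and has 2 start sites. None of its peaks lay within 2 kb of the first start. At the second start its strongest promoter peak, chr12:73907590-73907671, lay 227 bp upstream in an intron of the longer transcript, with a fold of 6.51 from 14 fragments. A pair of weaker peaks followed inside the gene at 1.12 and 1.38 kb, with folds of 4.54 and 3.58. A single further peak of fold 5.22 lay in an intron 21.7 kb downstream of the start. Of the 8 flank peaks, all downstream, 3 lay at the promoter of the neighbour Snapc1, including the strongest at a fold of 6.94, and 4 of the 12 peaks in all were nearest to a start of Hif1a.

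Epas1 encodes HIF-2 alpha, which is prominent in endothelial cells, and lies at chr17:86753864-86833410 on the plus strand (gene ID 13819). No peak came within 30.5 kb of its start. A cluster of 4 intergenic peaks lay 30.5 to 31.7 kb upstream, within 1.26 kb of sequence. The strongest of them, chr17:86722881-86723183, had a fold of 9.96 from 22 fragments (Poisson 95% interval 13.8 to 33.3), and the others had folds of 5.22, 4.17 and 4.36. The only other peak lay in an intron 47.7 kb into the gene with a fold of 4.36. All 5 peaks were nearer to the start of Epas1 than to that of any other gene.

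Egln3, the prolyl hydroxylase that marks HIF alpha for destruction and is itself a HIF target, lies at chr12:54178981-54203874 on the minus strand (gene ID 112407). Its only peak, chr12:54214200-54214335, lay 10.4 kb upstream of the start with a fold of 4.69 from 10 fragments (4.80 to 18.4). The 150 bp on either side of the summit of that peak held a hypoxia response element core. Its promoter core, 229 bases before the start, was 10.1 kb from this peak.

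Slc2a1, which encodes the glucose transporter GLUT1, was the most densely marked of the 10 genes. It lies at chr4:119108745-119137330 on the plus strand (gene ID 20525). Of its 41 peaks, 4 were at the promoter, 15 in the gene body, 20 upstream in the flank and 2 downstream. Of these, 39 formed a run with gaps of at most 12.5 kb, from 119082831 to 119127577, over 44.7 kb. Runs with at least as many peaks numbered 280 of 22564 in the genome (1.24%).

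Upstream of Slc2a1 the peaks thickened between 3.0 and 13.7 kb from the start, where the strongest had folds of 8.67 (7.93 kb upstream, 19 fragments) and 8.24 (9.84 kb, 18 fragments). At the promoter the peak with the highest significance, chr4:119106114-119106889, had a fold of 7.41 from 24 fragments, but its summit lay 2.55 kb upstream and only its edge reached the 2 kb window. The peak next to the start, chr4:119108294-119108664, had a fold of 7.24 from 16 fragments with its summit 305 bp upstream. Inside the gene, 7 peaks lay 12.01 to 13.41 kb from the start and 4 more lay 16.4 to 18.5 kb from it. Among those 4 was the strongest peak at Slc2a1, chr4:119124387-119125391, 1005 bp wide, with a fold of 9.53 from 21 fragments. All 15 gene body peaks had their summits in introns. For 27 of the 41 peaks the nearest start site was that of Slc2a1, whereas the intronic peaks beyond 12 kb were nearer to that of the predicted gene Gm12867, and 1 flank peak lay at the promoter of Zfp691.

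Pgk1 encodes phosphoglycerate kinase, an ATP-producing enzyme of glycolysis, and lies at chrX:106187100-106203699 on the plus strand (gene ID 18655). Its 5 promoter peaks and 4 gene body peaks formed a run of 6.38 kb, all of it between 1.8 kb before the start and 4.6 kb after it, and the remaining peak lay 47.6 kb upstream near Tlr13. The density of 85.8 peaks per Mb stood against 9.96 for the X chromosome, a ratio of 8.61. The strongest peak, chrX:106185891-106186003, had a fold of 7.24 from 16 fragments, with its summit 1.17 kb upstream. That peak held a CACGTG of its own, within 50 bases of the summit, shown in capitals because it was the only one of the members' strongest promoter peaks with a core so near its summit.
Pgk1 peak, chrX:106185879-106185979 (+): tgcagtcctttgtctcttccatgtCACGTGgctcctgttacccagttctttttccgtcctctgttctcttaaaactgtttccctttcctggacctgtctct

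Ldha encodes the muscle-type subunit of lactate dehydrogenase, which turns pyruvate into lactate, and carried the strongest promoter peak of the 10 genes. It lies at chr7:46842274-46855627 on the plus strand (gene ID 16828) with 2 curated start sites. The peak, chr7:46846265-46847003, filled most of the interval between the starts, with its summit 395 bp before the second. Its fold of 11.7 from 26 fragments (16.98 to 38.1) was above that of 89.6% of genes with a promoter peak. A smaller peak of fold 4.36 lay 253 bp after the second start, with its summit in a coding exon. The 50 bases on either side of the summit of the stronger peak held no core, as shown here all in lower case.
Ldha peak, chr7:46846637-46846737 (+): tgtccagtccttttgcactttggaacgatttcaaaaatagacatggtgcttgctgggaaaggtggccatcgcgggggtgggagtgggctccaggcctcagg
In the flank of Ldha, 4 intergenic peaks lay 6.06 to 7.67 kb upstream of the first start, and the strongest of them had a fold of 7.70 from 25 fragments. A group of 5 peaks about 49 kb upstream lay at the shared promoter region of Gtf2h1 and Hps5. For 7 of the 13 peaks the nearest start was that of Ldha.

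Pdk1, the kinase that keeps pyruvate out of the mitochondrion, lies at chr2:71873215-71903858 on the plus strand (gene ID 228026) and had no promoter or gene body peak. Its 3 peaks lay downstream, 59.8 to 64.5 kb from the nearer start, with folds of 3.87, 6.51 and 5.95. The nearest start site for all 3 was that of Rapgef4, 41.8 to 46.5 kb away. On the other side the nearest peak lay 58.8 kb before the start, outside the 50 kb.

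Bnip3, a mitochondrial protein that sends damaged mitochondria to autophagy, lies at chr7:138890836-138909506 on the minus strand (gene ID 12176). Its 3 promoter peaks and 2 gene body peaks all lay in introns, 1.13 to 2.69 kb after the start, and none lay before the start within 2 kb. Their folds were 4.79, 4.79, 3.28, 3.35 and 4.71, and the strongest promoter peak had 10 fragments (4.80 to 18.4). Only 11.9% of genes with a promoter peak had a lower fold than Bnip3. The strongest peak in its flank, and of all 115, was chr7:138847019-138848586 with a fold of 15.98 from 36 fragments (25.2 to 49.8), but it lay 62.4 kb downstream and 0.71 kb from the start of Ppp2r2d, a regulatory subunit of a protein phosphatase.

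Car9 encodes carbonic anhydrase IX, a cell surface enzyme that helps control pH and a widely used marker of hypoxic tumor cells. It lies at chr4:43507026-43513729 on the plus strand (gene ID 230099), and all of its 16 peaks were in the downstream flank, 13.2 to 56.6 kb from the start. None of the 16 was nearest to the start of Car9. They lay at the neighbours Tpm2, Tln1 and Creb3, and 7 of them were within 2 kb of a start site of these genes. The strongest, chr4:43560796-43562049, had a fold of 9.53 from 21 fragments and lay 0.676 kb from the start of Tln1, which encodes the adhesion protein talin. High density at Car9 thus came from peaks at other genes. The 50 kb limit fell inside this group, since the last peak counted had a fold of 3.50 and the first left out, chr4:43564168-43564334, had a fold of 3.58.

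Vegfa, the main signal for new blood vessels, lies at chr17:46016993-46032377 on the minus strand (gene ID 22339) and was in an interval without any peak from 45752769 to 46111456, a length of 359 kb. Vegfa was the only protein-coding gene that lay whole in that interval. The nearest summit was 79.1 kb upstream of its first start. Such a distance was not unusual, since 20.2% of genes had their nearest summit as far or farther, and 22.5% had their outermost start in a gap as long. The running numbers in the peak names had no gap at any of the 10 genes, so the peaks on either side of Vegfa carried consecutive numbers.

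Where promoter peaks were present, their strength was close to that of other genes. The strongest promoter peak of a gene, taken by significance, had a median fold of 7.24 over the 5 members that had one, beside a median of 7.11 and quartiles of 5.65 and 9.36 over the 9569 genes with a promoter peak. Ldha lay above the upper quartile, Bnip3 below the lower quartile, and Slc2a1, Pgk1 and Hif1a between them at 7.41, 7.24 and 6.51. The Poisson intervals of the fragments behind these 5 peaks overlapped, also those of Ldha (16.98 to 38.1) and Bnip3 (4.80 to 18.4).

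**Figure D2:**
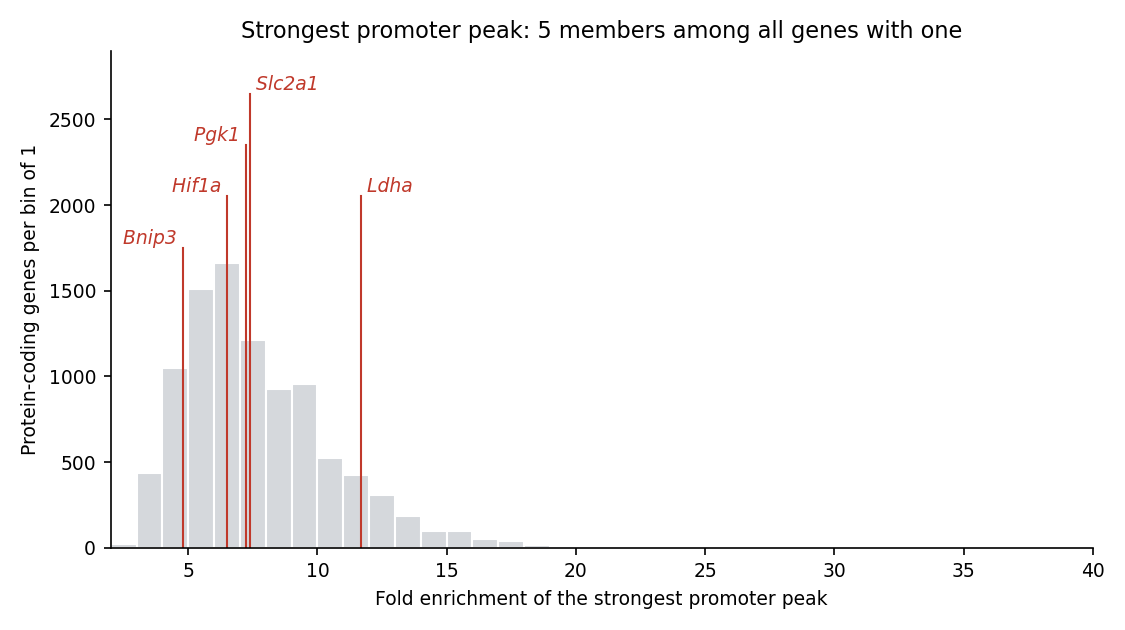
Grey bars count the 9569 protein-coding genes with a promoter peak by the fold enrichment of the strongest one, in bins of 1 (horizontal axis, fold; vertical axis, genes), and red lines mark the 5 hypoxia genes. Bnip3 at 4.79 and Ldha at 11.7 lie to either side of the other 3, which sit near the median of 7.11.

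None of the marked promoters carried a peak over the start site itself. The nearest peak edge was 79 bp from a start of Ldha, 81 bp from that of Slc2a1, 196 bp from that of Hif1a, 622 bp from that of Pgk1 and 1083 bp from that of Bnip3. This was also the usual arrangement, since 8.30% of the 9569 genes with a promoter peak had a peak over a start, and their median edge distance was 237 bp beside 196 bp for the 5 genes. This feature, and the position of the cores below, were chosen after their values were seen.

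In the 250 bases before the 12 start sites that had a sequence, 9 members held 19 stretches of core, of which 4 read CACGTG. At the 6 start sites that also had a promoter peak there were 14 stretches, and 0 of the 14 were covered by a peak. Both cores of Slc2a1, 61 and 36 bases before the start, began within 45 bp of the peak that ended 81 bases before it, and the core of the second Ldha start lay 20 bp beyond the edge of the strong peak. The CACGTG of Hif1a, 135 bases before its second start, was 61 bp from the nearest peak. At Pgk1, Bnip3 and the first start of Ldha the cores were 472 to 1196 bp from a peak. Across all 5469 protein-coding start sites with a core and a promoter peak, 8.65% of the stretches were covered by a peak, so an uncovered core was the common state there as well. At the genes with no promoter peak the distances were 10.1 kb for Egln3, 13.2 kb for Car9 and 58.6 kb for Pdk1. Vegfa had no core before its outer start and 2 before its inner start. These 2 cores lie inside the span of the gene, 86.1 kb from a peak.

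**Figure D3:**
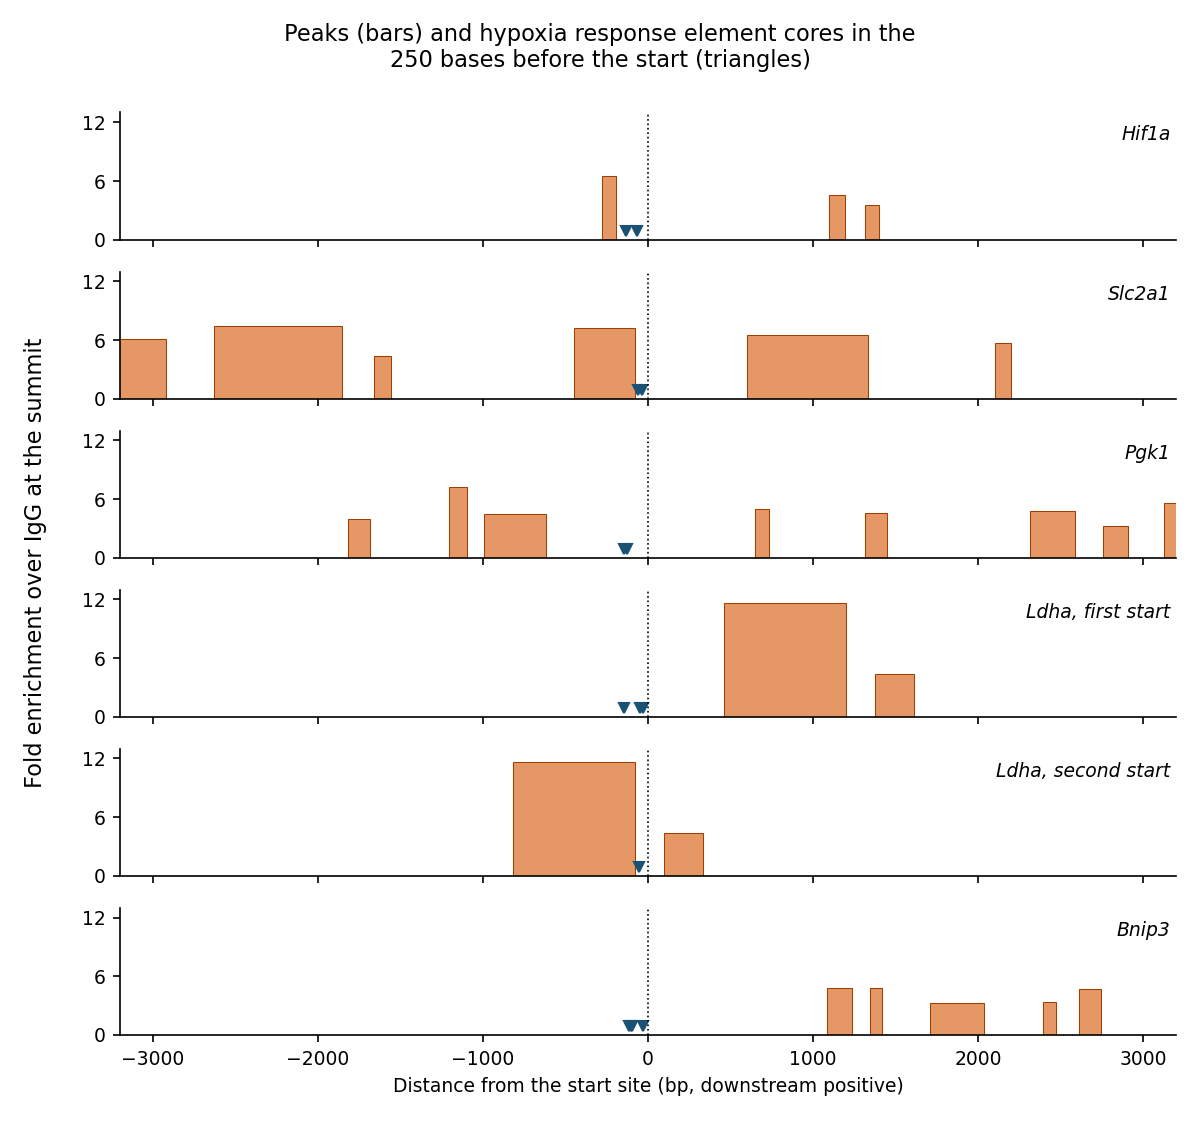
Bars show the peaks within 3.2 kb of 6 start sites (horizontal axis, distance from the start in bp; vertical axis, fold enrichment; bar width, peak width), and triangles show the 14 stretches of hypoxia response element core in the 250 bases before the start. All 14 triangles fall outside the peaks, closest to a peak at Slc2a1 and the second Ldha start.

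A core is a short word and is common in promoters. In RefSeq promoter sequences of 300 bases, from 250 before the start to 50 after it, 43.8% of 32851 held one, and 19.6% held ACGTG. Before the start, in 250 bases, the shares were 38.6% and 16.6%, and 16.7% held 2 or more cores. Car9, Egln3 and 1 start of Pdk1 held 1 core each, while Bnip3 held 4 stretches and the first start of Ldha 3. A match shows only that the letters are present and says nothing of binding.

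Around the summits themselves, the share of windows with a core had an interval that held the share of the whole list. In windows of 150 bp on either side, 41 of the 115 peaks (35.7%, Wilson 95% interval 27.5 to 44.7) held a core, beside 28.8% of the whole list. Among the 79 peaks away from any start site the share was 26.6% (18.1 to 37.2) against 25.6% of such peaks in the list. Among the 36 peaks within 2 kb of a start of any gene it was 55.6% (39.6 to 70.5) against 39.9%, so the interval reached just below the share of the list. Of these 36, 17 were promoter peaks of the 10 genes and 19 were flank peaks at the promoter of another gene. Shares for the 36 thus do not describe the promoters of the 10 genes alone. ACGTG, whether or not GCGTG was there too, was in 21.7% of the 115 windows (15.2 to 30.1) against 14.9% of the list. That interval lay above the share of the list, but the comparison was not matched for distance from start sites. Peaks near start sites were 36 of the 115 and 26771 of the 122375 in the list, and in the list they held ACGTG more often. Near start sites the shares were 33.3% (20.2 to 49.7) against 20.0%, and away from them 16.5% (9.88 to 26.1) against 13.5%. In the whole peak ACGTG was in 13.9% (8.75 to 21.4) against 13.7%. With 50 bp on either side it was in 7.83% (4.17 to 14.2) against 5.70%. Both of these intervals held the share of the list. Neighbouring windows can share sequence, which the intervals do not allow for. For the core, with 50 bp on either side, the 36 peaks near start sites had a share of 13.9% against 16.1%, in the other direction. For ACGTG those 36 had 13.9% (6.08 to 28.7) against 7.29%. Slc2a1 had a core in 14 of its 41 windows, Car9 in 8 of 16, Bnip3 in 5 of 14, Hif1a in 5 of 12, Pgk1 in 4 of 10 and Ldha in 4 of 13, while Epas1 had none in 5 and Pdk1 none in 3. No peak counted for Car9 was nearest to its own start.

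The E-box CAGCTG, bound by myogenic factors such as MYOD1, was in 16.5% of the windows of the members (10.8 to 24.4) and 14.6% of all, with 7 of the 14 peaks at Bnip3 holding it. The AP-1 motif, TGACTCA or TGAGTCA, was in 13.04% (8.07 to 20.4) and 9.94% of all. Forkhead motifs, GTAAACA or ATAAACA, were in 10.4% and 12.3%, and the homeodomain dimer, TAAT followed after 2 or 3 bases by ATTA, was in 2 windows (1.74%), both at Slc2a1, and in 1.31% of all. Both strands were searched for each motif. The median GC content of the windows was 48.7% near start sites and 47.2% away from them, beside 48.5% and 44.5% in the list.

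CpG content, which goes with active promoters in general, was above the middle of all genes at 9 of the 10 genes, with Pgk1, Egln3 and Vegfa just above it. Genes were split into 10 equal strata by the number of CpG pairs within 500 bp of a start, and the share with a promoter peak rose from 3.33% in the lowest to 72.5% in the highest. Hif1a (100 CpG pairs) fell in the highest stratum and had a peak. Slc2a1 (84) and Pdk1 (91) shared a stratum in which 71.0% of genes had one, as did Ldha (73) and Epas1 (71) with 69.8%, and in each pair the first had a promoter peak and the second none. Pgk1 (54), Egln3 (51) and Vegfa (54) shared a stratum with 65.0%, and only Pgk1 had a peak. Bnip3 (69) lay in a stratum with 68.8%. Car9 (17) was in the third lowest, where 15.0% of genes had one. The 4 genes Epas1, Egln3, Pdk1 and Vegfa were thus without a promoter peak in strata where 65.0% to 71.0% of genes had one, so a gene without one was not rare there.

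**Figure D4:**
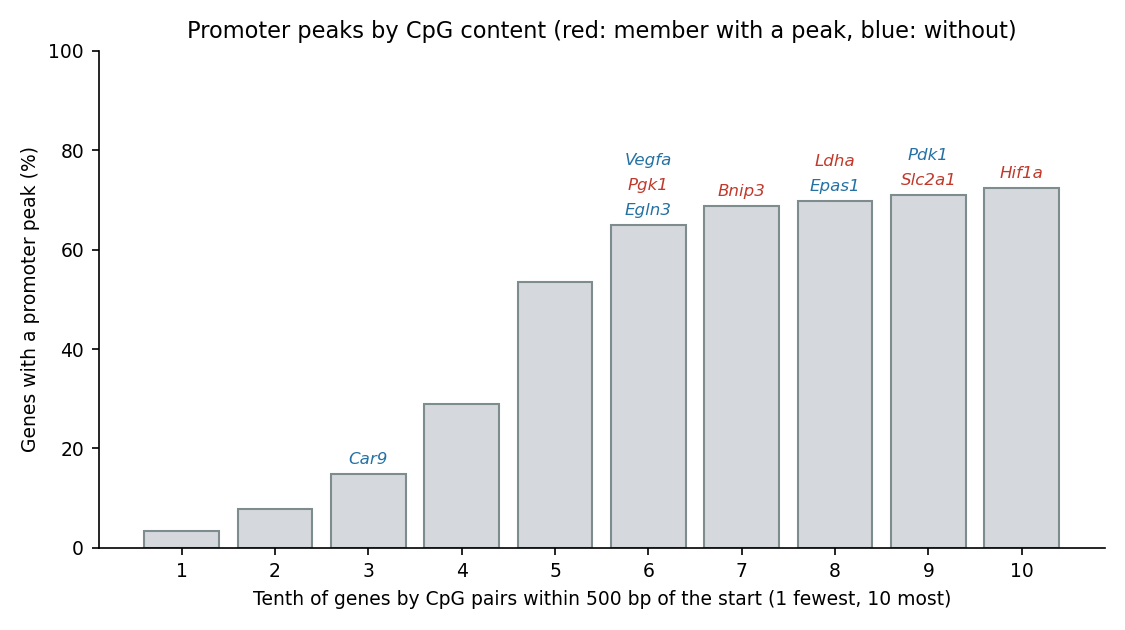
Grey bars give the percent of protein-coding genes with an H3K27ac promoter peak (vertical axis) in 10 strata of 2100 genes by CpG pairs within 500 bp of a start (horizontal axis), and the 10 hypoxia genes are named over their stratum, in red with a promoter peak and in blue without. The share rises from 3.33% to 72.5%, and Vegfa, Egln3, Epas1 and Pdk1 are in blue over strata with 65.0% to 71.0%.

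A wider list of 79 genes of the hypoxia response, arranged by role and holding the 10 genes, was described next. Of the 79, 51 (64.6%, 53.6 to 74.2) had a promoter peak, and without the 10 genes 46 of 69 (66.7%), beside 45.6% of all genes. The CpG content of the 79 was not compared. In the CpG strata above the middle, 65.0% to 72.5% of all genes had a promoter peak. The share differed between the roles. Oxygen sensing and HIF regulation had 11 of 12, with Egln3 the exception, and the highest folds were at Vhl (13.4), the factor that binds hydroxylated HIF, and Cul2 (12.1), the scaffold of its ubiquitin ligase. Glucose transport and glycolysis had 19 of 23, led by Pfkm (12.1), the muscle phosphofructokinase, followed by Eno1, an enolase, and Ldha at 11.7 each. Mitochondria and autophagy had 5 of 6, led by Fundc1 (10.3) and Fam162a (7.64).

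Vessel signalling stood at the other end, with 1 of 10 genes (10.0%, 1.79 to 40.4). Vegfa and its receptor gene Kdr had no peak within 50 kb. HIF subunits had 2 of 5, Arnt (8.96) and Hif1a (6.51), and Arnt2 had no peak within 50 kb. Among pH genes 1 of 4 had a promoter peak, and Car9 was among those without. Matrix genes had 3 of 6, led by P4ha1 (8.24) and Plod2 (6.51), which encode collagen hydroxylases. Stress and other targets had 9 of 13, led by Kdm3a (7.99), a histone demethylase, and Ddit4 (7.37), an inhibitor of mTOR signalling, and Stc2 had no peak within 50 kb.

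**Figure D5:**
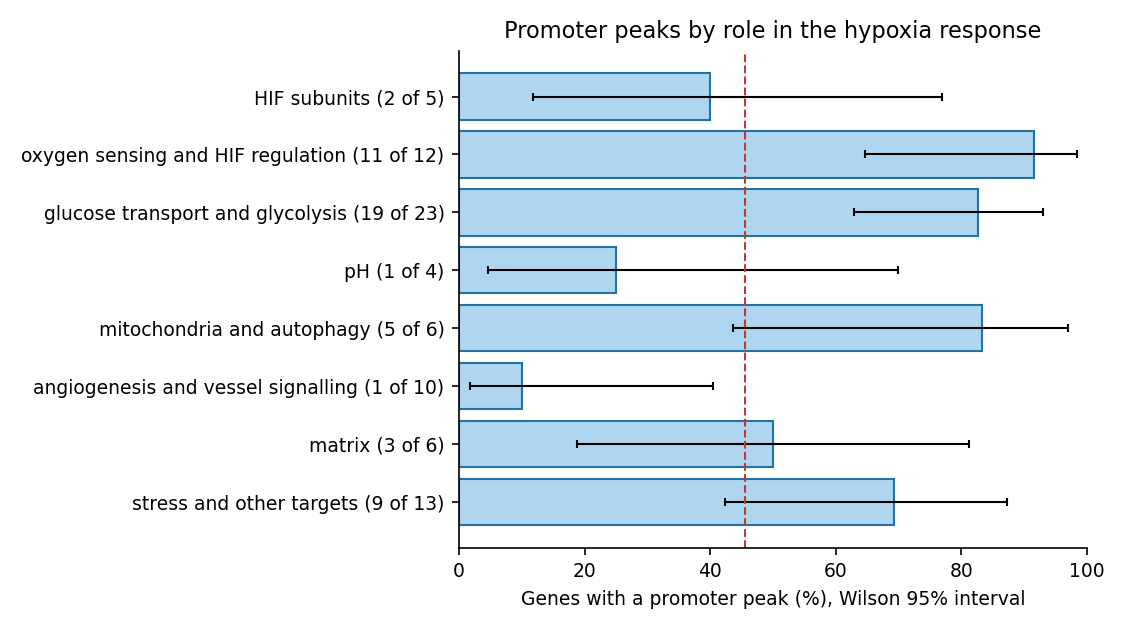
Bars give the percent of genes with an H3K27ac promoter peak (horizontal axis) for 8 roles of the hypoxia response (vertical axis), with Wilson 95% intervals as black lines and the 45.6% of all protein-coding genes as a red dashed line. Oxygen sensing (11 of 12) and glycolysis (19 of 23) lie above the line with their intervals, and vessel signalling (1 of 10) lies below it. The line is not matched for CpG content.

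Marker genes of cell types that a tumor can hold were mostly without promoter peaks in the same list. Myf6, whose locus carries the Cre, was the only 1 of 8 myogenic genes with one, so most defining markers of the labelled lineage were unmarked at their promoters. Myog and Pax7 had no peak within 50 kb, whereas Myf6 and the other 5 myogenic genes had 7 to 36 peaks in their regions, mostly in flanks. Counts were made gene by gene, so any peak in the regions of both Myf5 and Myf6, on chromosome 10, was counted for each. The median density of the 8 myogenic genes was 123 peaks per Mb. It was 54.7 for the endothelial genes, 36.6 for the leukocyte genes, 8.36 for the fibroblast genes, 0 for the hepatocyte genes and 56.2 for all genes. No endothelial gene of 8 had a promoter peak (0 to 32.4), although 4 of the 8 had a gene body peak, against 33.2% of all genes. Cd68 was the only 1 of 6 leukocyte genes and Pdgfra the only 1 of 6 fibroblast genes with a promoter peak (3.01 to 56.4 for each list). Of 4 hepatocyte genes, which served as a control, 0 had one (0 to 49.0). Only the endothelial interval lay below the 45.6% of all genes. The part of cell mixture in the peaks at the hypoxia genes was not tested. The sort was for live tumor cells, and in a bulk library fewer cells with the mark and less of the mark in each cell cannot be told apart.

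The absence of a peak in a list from 1 library is a statement about that list. No peak in it had fewer than 7 fragments over the summit, so weaker acetylation at Vegfa, Pdk1, Egln3, Epas1 or Car9 would not have been detectable at this depth.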

How the data were processed

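MCP tumor cells were profiled by CUT&RUN for H3K27ac, and the peak list of 1 library was analyzed. According to the methods of the study, the authors aligned reads with bowtie, removed problematic regions and called peaks with MACS against IgG. The submitters' processing notes name BWA, SAMtools, MACS2 and the builds mm10 and dm6 instead, and which of these produced the list is not known here. The deposited fold enrichment is a ratio of scaled fragments at the summit to the local IgG background, as the authors' caller gave it. The deposited significance columns are the -log10 p-value and the -log10 q-value of each peak, and the largest q-value in the list was 0.0471. The library was identified by the number in the peak names, which occurs in the labels of 1 sample.

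Start sites were those of curated RefSeq transcripts (GRCm38.p6, the build of the list), an overlap of 1 bp sufficed, and coordinates count from 1. Fragments over a summit were solved from fold and p with 1 scale between the libraries (0.885), and 99.9% of peaks gave exactly 1 whole number within 0.001 in -log10 p. They are inferences and not read counts, the total depth is unknown, and the Poisson and Wilson intervals (95%) cover counting error only. Motifs were counted in 150 bp on either side of summits. Steps were tested on simulated data (Python 3.11.15, pandas 2.3.3, scipy 1.17.1, statsmodels 0.14.6).

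All 10 genes were named with their values, the wider list was named by the 2 highest promoter folds of each role and by genes with no peak (some names of this list are not reported here), markers were named where they had a promoter peak, and neighbours where their start was nearest to a gene's strongest flank peak. Names beyond this rule (Gtf2h1, Hps5, Gm12867, Zfp691, Tpm2, Creb3, and Myog, Pax7 and Myf5) were added after the values were seen. The 10 genes, the lists and the tests were chosen with earlier results of these data known, so no test was run on them. Stricter thresholds, other windows and other start sites were tried as alternatives.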

Additional observations from a re-analysis of the deposited data

How the results depend on the processing

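Of 26 values under alternatives, 13 stayed near the reported one, within 1.5 times for counts and within the 95% interval for densities, folds and shares. A minimum -log10 q of 5 left 48 of the 115 peaks at the 10 genes (41.7%, against 47.9% of the list) and 37.5 peaks per Mb. With the strongest 25% of peaks, 24 peaks (20.9%, against 25.4% of the list, ties included) and 18.7 peaks per Mb were left. Promoter peaks were then present at 3 of the 10 genes (Slc2a1, Pgk1 and Ldha) and 33 of the 79 pathway genes (41.8%), against 29.3% of all genes. A core was in 6 of the 24 summit windows (25.0%), against 32.0% of all such peaks. With so few windows and no interval, the direction of this difference is uncertain. A flank of 10 kb gave 63 peaks and 131 peaks per Mb. The density over all genes is not given for this flank or for the stricter thresholds, so these densities have no background beside them. Without Slc2a1, an alternative chosen after seeing the data, 74 peaks and 64.2 per Mb remained. Windows of 50 bp on either side of the summit lowered the share with a core to 13.9%, against 11.7% of the list. Counting only ACGTG, with 150 bp on either side, lowered it to 21.7% (15.2 to 30.1), against 14.9%. That interval lay above the share of the list, which was not matched for distance from start sites. With 50 bp on either side ACGTG was in 7.83% (4.17 to 14.2), against 5.70%, an interval that held the share of the list. Bnip3 lost its promoter peak with a window of 1 kb and with the -log10 q of 5, which left 4 of the 10 genes against 43.5% and 37.9% of all genes. No paired analysis was possible because 1 library was used and no result comes from a test. Depth limits all absences, since a summit in the list had at least 7 fragments.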
